A study of Mus musculus with 22 samples.

Results

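ABT-888 (veliparib) blocks the catalytic site of the poly(ADP-ribose) polymerases PARP1 and PARP2, so the transcripts of its target family were followed here: Parp1, Parp2, Parp3, Parp4, Parp6, Parp8, Parp11, the tankyrases Tnks and Tnks2, and Parg, whose product removes the polymer. These 10 genes were chosen by symbol from the 39056 genes of the count table, and all 10 passed the filter on low counts that kept 14072 genes for testing. Total RNA and ribosome-bound RNA were measured in the prefrontal cortex (PFC) of 11 male mice, 8 to 12 weeks old, as 22 libraries. From each mouse, 1 library held total-RNA of the tissue and 1 held RNA pulled down with EGFP-tagged ribosomes (translating ribosome affinity purification, TRAP).

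All mice carried an EGFP-Rpl10a transgene behind a tetO promoter, switched on by tTA under the Camk2a promoter, on a C57BL/6J background, so every Control also carried both transgenes. Injections were intraperitoneal, 2 per day for 4 days, with tissue taken 2 h after the last one. Control mice received saline (n = 3, mice 1, 4 and 7). EtOH mice received 2 g/kg of ethanol per day (n = 4, mice 2, 5, 8 and 9). EtOH + ABT-888 mice received the same ethanol with 25 mg/kg ABT-888 on day 4 (n = 4, mice 3, 6, 10 and 11), and no group received ABT-888 alone. Capture depends on where the Camk2a promoter drives tTA, which can include neurons outside the cortical pyramidal class.

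Depth ran from 6570957 to 22002618 counted reads in TRAP and from 22132534 to 32421392 in total-RNA. Mouse 10 had the lowest mean correlation with the other libraries of its group in both pools (r = 0.953 in TRAP and 0.972 in total-RNA). The capture was checked against marker genes as sums of normalized CPM (CPM, counts scaled to the library total, with TMM factors, which scale libraries to a common composition). Astrocyte sums ran from 43.7 to 207 in TRAP against 915 to 1189 in total-RNA, and oligodendrocyte sums from 318 to 1458 against 1603 to 3151, with the highest TRAP value in mouse 11. The excitatory neuron markers Neurod6, Slc17a7 and Tbr1 were lower in TRAP than in total-RNA in each treatment, and Camk2a itself did not pass the test in any of them. All 6 striatal neuron markers (Drd1, Drd2, Adora2a, Ppp1r1b, Rgs9, Penk) were higher in TRAP in each treatment, with sums of 7160 to 10782 normalized CPM against 681 to 1496. The 6 inhibitory neuron markers were divided, with 3 (Gad1, Gad2 and Slc32a1) higher in TRAP in each treatment, Pvalb lower in each, Vip lower in EtOH and EtOH + ABT-888, and Sst not called. In preliminary TRAP experiments the study measured higher Egfp and Camk2a than in total-RNA, and lower levels of S100b and of a microglial marker. The striatal and excitatory markers of these libraries go against the label of a cortical excitatory pool. The pull-down is therefore named below by its method, TRAP, and a difference between pools cannot be told apart from their different mix of cells.

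ADP-ribosylation attaches ADP-ribose from NAD+ to proteins and nucleic acids. PARP1 and PARP2 build chains of it at DNA breaks, tankyrases build chains on partners such as axin, and the other members listed here attach single units or have little studied activity. PARG cuts the chains. In neurons the pathway is known both for DNA repair and for the control of transcription, since PARP1 also sits at promoters and opens chromatin.

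The promoters of Parp1, Parp11, Parp2 and Parp3 are shown first, because the levels of these members are compared below. RefSeq entries of the GRCm38.p6 build held a 300-base promoter (250 bases before and 50 after the start) for 9 of the 10 genes, 11 promoters in all, with no entry used for Tnks. In the sequences that follow, capitals mark the E-box CACGTG and the GC box GGGCGG (read in either direction, so also as its reverse complement), searched on both strands. Parp1 (chr1:180568641-180568940, + strand) and Parp11 had the highest Pearson r of any member pair across mice, 0.77 in TRAP and 0.91 in total-RNA. Other pairs also ran together in total-RNA, such as Tnks2 with Parg (r = 0.84, but -0.03 in TRAP) and Parp1 with Parp2 (0.77, and 0.53 in TRAP). Of Parp11 the downstream start (chr6:127453377-127453676, + strand) is printed, and the upstream start held neither motif. Levels were counted per gene and not per start. Parp2 (chr14:50807666-50807965, + strand) is the other enzyme that ABT-888 is known to inhibit. Parp3 (chr9:106476900-106477199, - strand) is the member that was higher with EtOH in TRAP.
Parp1: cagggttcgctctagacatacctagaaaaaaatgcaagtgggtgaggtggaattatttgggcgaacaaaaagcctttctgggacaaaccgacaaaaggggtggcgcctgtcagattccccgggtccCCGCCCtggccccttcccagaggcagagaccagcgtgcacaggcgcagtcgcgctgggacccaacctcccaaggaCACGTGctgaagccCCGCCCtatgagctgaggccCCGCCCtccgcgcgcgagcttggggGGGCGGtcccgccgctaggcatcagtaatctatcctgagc
Parp11: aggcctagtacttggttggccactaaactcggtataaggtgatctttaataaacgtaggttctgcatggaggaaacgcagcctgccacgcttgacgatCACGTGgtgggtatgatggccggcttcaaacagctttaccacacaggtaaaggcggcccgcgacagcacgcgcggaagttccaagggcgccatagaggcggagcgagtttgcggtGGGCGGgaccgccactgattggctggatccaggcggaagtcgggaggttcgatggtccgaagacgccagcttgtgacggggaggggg
Parp2: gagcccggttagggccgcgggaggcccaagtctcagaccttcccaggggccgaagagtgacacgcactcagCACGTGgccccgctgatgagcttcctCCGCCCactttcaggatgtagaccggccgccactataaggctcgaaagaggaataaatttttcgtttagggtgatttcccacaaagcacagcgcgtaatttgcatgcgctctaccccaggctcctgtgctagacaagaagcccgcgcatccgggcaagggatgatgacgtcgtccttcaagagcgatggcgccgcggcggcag
Parp3: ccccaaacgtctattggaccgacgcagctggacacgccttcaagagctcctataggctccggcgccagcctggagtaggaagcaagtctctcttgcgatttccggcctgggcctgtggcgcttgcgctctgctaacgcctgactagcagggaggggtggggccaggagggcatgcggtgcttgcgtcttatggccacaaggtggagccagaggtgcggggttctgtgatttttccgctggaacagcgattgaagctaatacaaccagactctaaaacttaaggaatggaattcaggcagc
An E-box was present in 3 of the 11 member promoters (Parp1, Parp2 and the downstream start of Parp11), while 7.2% of all 32851 RefSeq promoters of this length held one. The GC box was found in 6 of the 11 (Parp1, Parp2, Parp4, Parp6, Parp8 and the downstream Parp11 start), beside 35.7% of all promoters. The Parp3 promoter held neither, and so has no capitals, but it held a CCAAT box, as did 37.4% of all promoters. An ETS-type motif CCGGAAG was found in both Parg starts and in no other member promoter (8.9% of all), and TATAAA in none of the 11 (13.6% of all). The Parg windows (chr14:32201699-32201998 and chr14:32201721-32202020) overlap and hold the same ETS-type sites, so these sites are counted in both. G and C made up 42.0% of the upstream Parp11 promoter and between 56.7% and 72.3% of the other 10, with a median of 52.7% over all promoters. These matches describe letters in a window and not binding.

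Levels between genes were compared per kb of merged exon length. In Control total-RNA, Tnks2 was the most abundant member at 24.4 ± 1.08 normalized CPM per kb (SD, n = 3), followed by Parp6 at 17.8 ± 0.899, with no overlap between the libraries of the pair. Parp1 (14.5 ± 1.15) and Tnks (13.8 ± 0.394) came next and overlapped each other. Parg followed at 10.2 ± 0.765 normalized CPM per kb. A gap then separated the lower members, with Parp2 at 3.76 ± 0.208 and Parp11 at 3.36 ± 0.321 overlapping, Parp8 at 2.15 ± 0.0242, and Parp4 (0.945 ± 0.109) and Parp3 (0.784 ± 0.113) overlapping at the bottom. In Control TRAP the order of the upper members was Tnks2 (22.4 ± 1.03 normalized CPM per kb), Parp6 (21.3 ± 1.74), Parp1 (14.8 ± 1.36), Parg (10.5 ± 0.780) and Tnks (10.4 ± 0.284), and here Tnks2 and Parp6 overlapped. Tnks2 had the highest mean in all 6 groups on this scale. In EtOH TRAP, Parp3 had moved up to 3.48 ± 0.270 normalized CPM per kb (n = 4), next to Parp2 at 3.85 ± 1.06. Parp11 had the lowest mean there at 1.09 ± 0.270, overlapping Parp4 at 1.22 ± 0.147. These lengths merge all annotated transcripts. Divided by the longest single transcript instead, Parp6 in Control TRAP (42.0 normalized CPM per kb) came above Tnks2 (36.0), and Tnks in Control total-RNA (22.5) above Parp1 (19.8). In EtOH TRAP, Parp11 (2.05) then came above Parp4 (1.25).

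**Figure D1:**
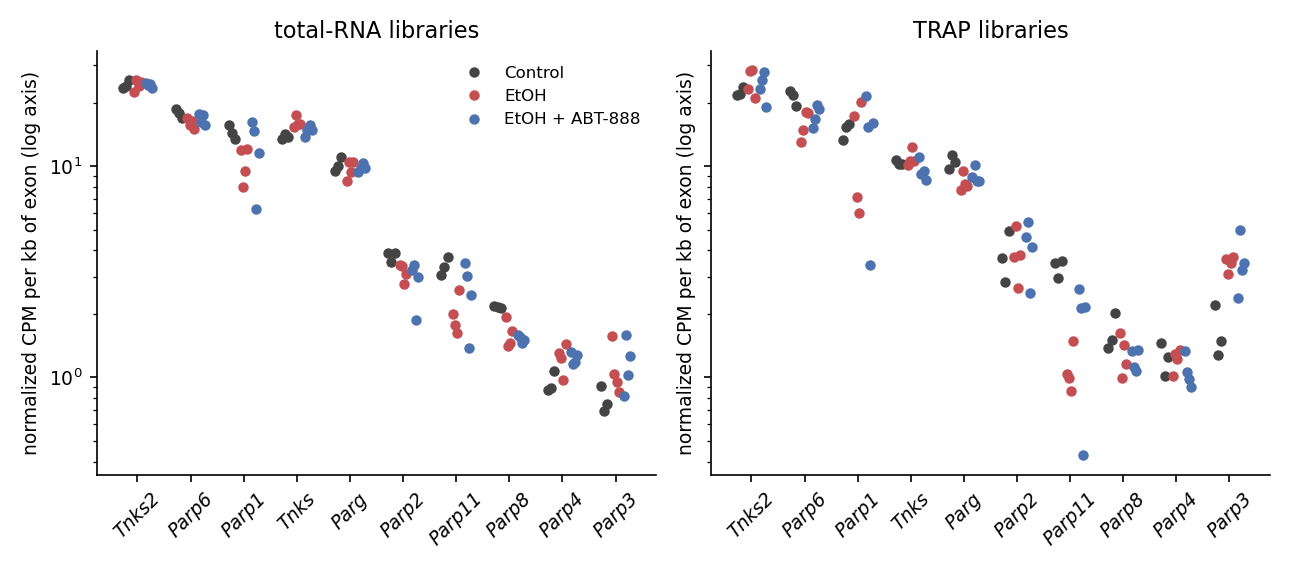
Level of each member per library, as normalized CPM per kb of merged exon on a log axis, in total-RNA (left) and TRAP (right), with 1 point for each mouse coloured by treatment. On merged exon length Tnks2 has the highest mean in both panels (with the longest transcript Parp6 is above it in Control TRAP), the lowest point of all is Parp11 in TRAP of mouse 10, and Parp3 lies higher in TRAP than in total-RNA.

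The first comparison asked how each member divides between ribosome-bound and total RNA. In Control, 4 of 10 members were called by edgeR's quasi-likelihood test at a Benjamini-Hochberg adjusted p under 0.05, where 59.9% of all tested genes were. In EtOH 3 were called against 50.7% of all genes, and in EtOH + ABT-888 2 against 41% of all genes, and the share of members called was below the background in each. Members whose libraries did not overlap between the pools numbered 4 in Control (66.9% of all tested genes), 3 in EtOH (47.3%) and 3 in EtOH + ABT-888 (40.4%). The median log2 fold change of the members was 0.01 in Control, -0.03 in EtOH and -0.08 in EtOH + ABT-888, beside 0.02, 0.03 and 0.05 over all tested genes.

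Parp3, which acts at DNA double-strand breaks, was the member with the highest TRAP level relative to total-RNA. In total-RNA it stood at 3.37, 2.56 and 2.78 normalized CPM in Control mice 1, 4 and 7, and in TRAP at 8.11, 4.71 and 5.52. In EtOH mice 2, 5, 8 and 9 the total-RNA values were 5.81, 3.84, 3.50 and 3.15, and the TRAP values 13.4, 11.5, 12.8 and 13.7. In EtOH + ABT-888 mice 3, 6, 10 and 11 they were 3.01, 5.87, 3.78 and 4.68 in total-RNA and 8.77, 18.5, 11.98 and 12.9 in TRAP. Every TRAP library exceeded every total-RNA library of its treatment, and all 11 mice had more in TRAP. The log2 fold change (TRAP over total-RNA) was 1.04 ± 0.26 (SE) in Control, 1.63 ± 0.24 in EtOH and 1.58 ± 0.30 in EtOH + ABT-888, with adjusted p of 0.00476, 0.000194 and 0.00161 by the quasi-likelihood test. Exons of Parp3 (chr9:106470322-106476949, - strand, mm10) overlap those of Rrp9, a small nucleolar RNA protein gene on the opposite strand. The strand setting of the counting is not given in the sources used here, so reads of the pair may have been shared, and Rrp9 was also higher in TRAP (log2 fold change 0.75, 1.04 and 0.85 in the same order, all called).

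Parp1, the main break sensor and ABT-888 target, and Parp2, its close relative, were not called between pools in any treatment. For Parp1 the log2 fold change was 0.02 in Control (95% interval -0.21 to 0.24), 0.27 in EtOH (-0.48 to 1.01) and 0.21 in EtOH + ABT-888 (-0.77 to 1.18). The interval was narrowest in Control. For Parp2 it was 0.01 in Control (-0.41 to 0.42), 0.27 in EtOH (-0.21 to 0.74) and 0.53 in EtOH + ABT-888 (-0.08 to 1.14, adjusted p = 0.149). With the mouse as a block, Parp2 in EtOH + ABT-888 was called (0.52, adjusted p = 0.0249), and it was higher in TRAP in 4 of 4 mice by a log2 ratio of 0.42 to 0.67. It was also called without the TRAP library of mouse 10 (0.71, adjusted p = 0.0347 by the quasi-likelihood test).

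The tankyrases differed from each other. Tnks was at 201, 212 and 206 normalized CPM in Control total-RNA (mice 1, 4 and 7) and at 160, 153 and 152 in TRAP. In EtOH total-RNA it was at 229, 259, 237 and 235 (mice 2, 5, 8 and 9) and in TRAP at 152, 157, 184 and 157. In EtOH + ABT-888 total-RNA it was at 204, 222, 233 and 222 (mice 3, 6, 10 and 11) and in TRAP at 164, 136, 141 and 128. The pools did not overlap in any treatment, and all 11 mice had less Tnks in TRAP. Its log2 fold change was -0.43 ± 0.08 in Control, -0.58 ± 0.11 in EtOH and -0.63 ± 0.13 in EtOH + ABT-888 (adjusted p = 0.000694, 0.00130 and 0.00227, quasi-likelihood test). Tnks2, which shares the ankyrin repeats and the axin and TRF1 partners of Tnks, was not called, with log2 fold changes of -0.14 (-0.31 to 0.04), 0.04 (-0.24 to 0.31) and -0.02 (-0.32 to 0.28). Gm9939, on the strand opposite Tnks, was at most 0.574 normalized CPM in any library.

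Among the mono-ADP-ribosyltransferases, Parp6, studied for dendrite growth in neurons, was higher in TRAP in Control by 0.24 ± 0.09 on the log2 scale (adjusted p = 0.0384, quasi-likelihood test), and Parp8 was lower by -0.40 ± 0.16 (adjusted p = 0.0430). Control Parp6 was at 145, 139 and 131 normalized CPM in total-RNA and 176, 169 and 150 in TRAP, and Control Parp8 at 19.3, 19.1 and 18.9 against 12.3, 13.3 and 18.0. The pools did not overlap for either gene, though the highest Parp8 TRAP library came close to the total-RNA values. Both calls were lost in 5 of the 6 fits that left out 1 Control library, all but the one without the TRAP library of mouse 7, with adjusted p up to 0.126 for Parp6 and 0.130 for Parp8, and both were lost when 1 model was fitted to the 22 libraries together (0.112 and 0.113). The Parp6 call was also lost with no filter on low counts (adjusted p = 0.0764) and the Parp8 call with filterByExpr, another filter (adjusted p = 0.0509). Neither was called between pools in EtOH (log2 fold change -0.02 and -0.33) or EtOH + ABT-888 (0.06 and -0.32). Parp8 was nevertheless lower in TRAP in all 11 mice.

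Parp11, a mono-ADP-ribosyltransferase linked to the nuclear envelope, showed no call in Control (-0.03, -0.31 to 0.25) and was lower in TRAP in EtOH by -0.89 ± 0.23 on the log2 scale (adjusted p = 0.00765, quasi-likelihood test). In EtOH + ABT-888 the value was -0.50 (-1.50 to 0.50, adjusted p = 0.413), from -0.73 without the TRAP library of mouse 3 to -0.17 without that of mouse 10, and with the mouse as a block it was -0.66 (adjusted p = 0.0342). The per-mouse log2 ratio lay between -0.17 and 0.19 in Control, between -0.95 and -0.81 in EtOH and between -1.69 and -0.19 in EtOH + ABT-888, so all 8 treated mice were below 0. The ratios of Control and EtOH mice did not overlap. Parp4, the vault particle enzyme, was not called between pools in any treatment (0.36, -0.04 and -0.21), and was called in Control only without the TRAP library of mouse 4 (0.49, adjusted p = 0.0470). Parg was not called in any treatment either (0.03, -0.23 and -0.13).

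**Figure D2:**
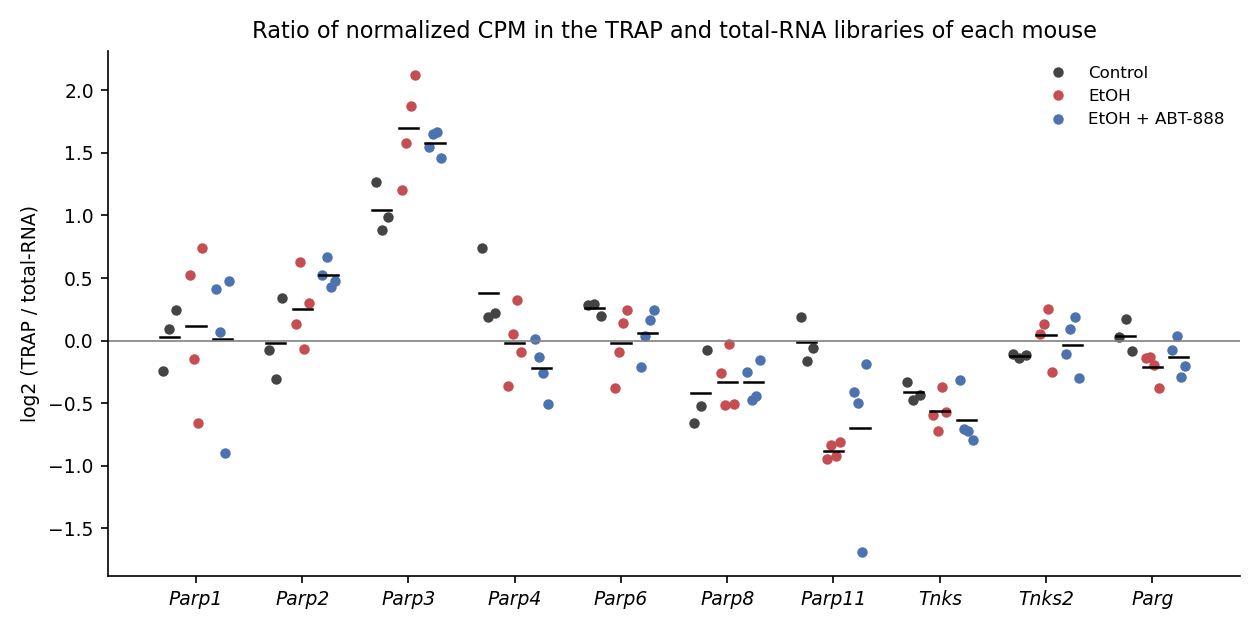
Log2 ratio of normalized CPM in TRAP over total-RNA of the same mouse for each member, with 1 point for each mouse coloured by treatment and a black bar at the mean of each treatment. Parp3 is above 0 in all 11 mice, Tnks and Parp8 are below 0 in all 11, and Parp11 is below 0 in the 8 treated mice.

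The next comparison asked what 4 days of ethanol did to the members within each pool. In TRAP, EtOH against Control called 2 of 10 members, Parp11 lower and Parp3 higher, where 5.24% of all tested genes were called. In total-RNA it also called 2, Parp11 and Parp1, both lower, where 17.6% of all tested genes were called. Members whose libraries did not overlap between the groups numbered 4 in TRAP (22.3% of all tested genes) and 5 in total-RNA (30.5%). Median log2 fold changes of the members were -0.11 in both pools, beside 0.02 in TRAP and 0.0011 in total-RNA over all tested genes.

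Parp11 had the lowest log2 fold change of the 10 members in both pools. In TRAP the Control libraries of mice 1, 4 and 7 held 24.4, 20.8 and 25.0 normalized CPM, the EtOH libraries of mice 2, 5, 8 and 9 held 7.28, 6.96, 6.04 and 10.4, and the EtOH + ABT-888 libraries of mice 3, 6, 10 and 11 held 18.5, 15.01, 3.01 and 15.2. All 4 EtOH libraries were below all Controls with a wide gap, 3 EtOH + ABT-888 libraries sat between those groups, and mouse 10 was the lowest of all. In total-RNA the same mice, in the same order, held 21.5, 23.4 and 26.0, then 14.05, 12.4, 11.4 and 18.2, then 24.5, 21.2, 9.69 and 17.3. The EtOH libraries were again all below Control, and EtOH + ABT-888 overlapped both other groups. The log2 fold change of EtOH against Control was -1.59 ± 0.23 in TRAP (fold 0.331, adjusted p = 0.00415) and -0.75 ± 0.16 in total-RNA (fold 0.594, adjusted p = 0.00909) by the quasi-likelihood test. The TRAP call held in all 7 fits that left out 1 library, with adjusted p up to 0.0339. The total-RNA call was lost without Control mouse 7 (-0.67, adjusted p = 0.0503) and when 1 model was fitted to the 22 libraries together (adjusted p = 0.323). The difference between the pools was not called as an interaction (-0.86, -1.95 to 0.23, unadjusted p = 0.117, adjusted p = 1.00), and with the mouse as a block its adjusted p was 0.274.

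Parp1 was lower with EtOH in total-RNA. Control mice 1, 4 and 7 held 83.2, 76.1 and 71.0 normalized CPM and EtOH mice 2, 5, 8 and 9 held 63.5, 42.2, 50.0 and 63.9, with no overlap. The log2 fold change was -0.48 ± 0.14 (adjusted p = 0.0356, quasi-likelihood test). The call was lost in 5 of 7 fits that left out 1 library, namely without Control mouse 1 (adjusted p = 0.150), Control mouse 4 (0.104), Control mouse 7 (0.0706), EtOH mouse 5 (0.0673) or EtOH mouse 8 (0.0777), and in the joint model of 22 libraries (0.607). In TRAP the Control libraries held 70.3, 81.1 and 84.0 and the EtOH libraries 91.2, 38.0, 31.6 and 107. Mice 2 and 9 were above every Control and mice 5 and 8 below every Control, so the EtOH group lay on both sides, and the log2 fold change was -0.22 (-0.96 to 0.52, adjusted p = 0.738).

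Parp3 was higher with EtOH in TRAP, by 1.10 ± 0.25 on the log2 scale (fold 2.15, adjusted p = 0.0293, quasi-likelihood test), from the library values given above. All 4 EtOH libraries were above all 3 Controls. The call was lost when any 1 Control library was left out, mouse 1 (1.35, adjusted p = 0.0600), mouse 4 (0.94, 0.147) or mouse 7 (1.03, 0.148). In total-RNA the value was 0.50 (-0.03 to 1.04, adjusted p = 0.172), and the groups overlapped. Rrp9, the gene on the opposite strand, did not move with it in TRAP (-0.01, -0.57 to 0.55, adjusted p = 0.988).

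The remaining members were not called with EtOH. Parp8 was at 17.2, 12.6, 12.95 and 14.7 normalized CPM in EtOH total-RNA against 19.3, 19.1 and 18.9 in Control, without overlap. Its log2 fold change was -0.41 (-0.71 to -0.11, adjusted p = 0.0611 by the quasi-likelihood test), under the threshold by exactTest (0.0457), by DESeq2 (0.0386) and by the quasi-likelihood test without EtOH mouse 2 (0.0332). Tnks in total-RNA was at 0.22 (0.02 to 0.42, adjusted p = 0.109) with every EtOH library above every Control, and Parp2 at -0.25 (-0.55 to 0.05, adjusted p = 0.228) with every EtOH library below. Parp6 in TRAP was at -0.40 (-0.74 to -0.06, adjusted p = 0.153) with 101, 115, 140 and 139 normalized CPM in EtOH against 176, 169 and 150 in Control. It was called only in the joint model of 22 libraries (adjusted p = 0.0337). Parg in TRAP was at -0.30 (-0.62 to 0.03, adjusted p = 0.254), with EtOH values of 44.5, 55.1, 47.4 and 46.6 against 56.0, 65.0 and 60.2. Parp4 was at 0.0028 in TRAP (-0.54 to 0.55) and 0.39 in total-RNA (-0.00080 to 0.78). Tnks2 was at 0.19 in TRAP (-0.13 to 0.52) and -0.0025 in total-RNA (-0.20 to 0.20).

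Markers of other cells moved along with ethanol in total-RNA. Of 6 microglia markers, 5 (Cx3cr1, Tmem119, P2ry12, Aif1, Csf1r) were lower with EtOH there, with summed levels of 225 to 238 normalized CPM in Control, 77.1 to 112 in EtOH and 61.9 to 180 in EtOH + ABT-888. In TRAP the same sum was 12.7 to 26.2, 4.60 to 31.8 and 4.54 to 38.2, where Aif1 was at 0 in 2 EtOH libraries and Cx3cr1 in 2 EtOH + ABT-888 libraries, and 1 of the 6 (P2ry12) was called lower with EtOH. Among excitatory markers Neurod6 was lower with EtOH in both pools, while of the striatal markers Drd2 was lower with EtOH in TRAP and Ppp1r1b higher in total-RNA. The 6 endothelial markers were split in total-RNA, with 3 log2 fold changes above 0 and 3 below, and the called ones, Tek and Flt1, were lower with EtOH. Single markers were also called in total-RNA among inhibitory neurons (Gad2, higher), oligodendrocytes (Mobp, higher) and, in opposite directions, astrocytes (Gfap higher and Aqp4 lower). In such bulk samples fewer cells of a type and less RNA per cell cannot be told apart, and the part of these shifts in the Parp11, Parp1 and Parp3 differences was not tested.

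**Figure D3:**
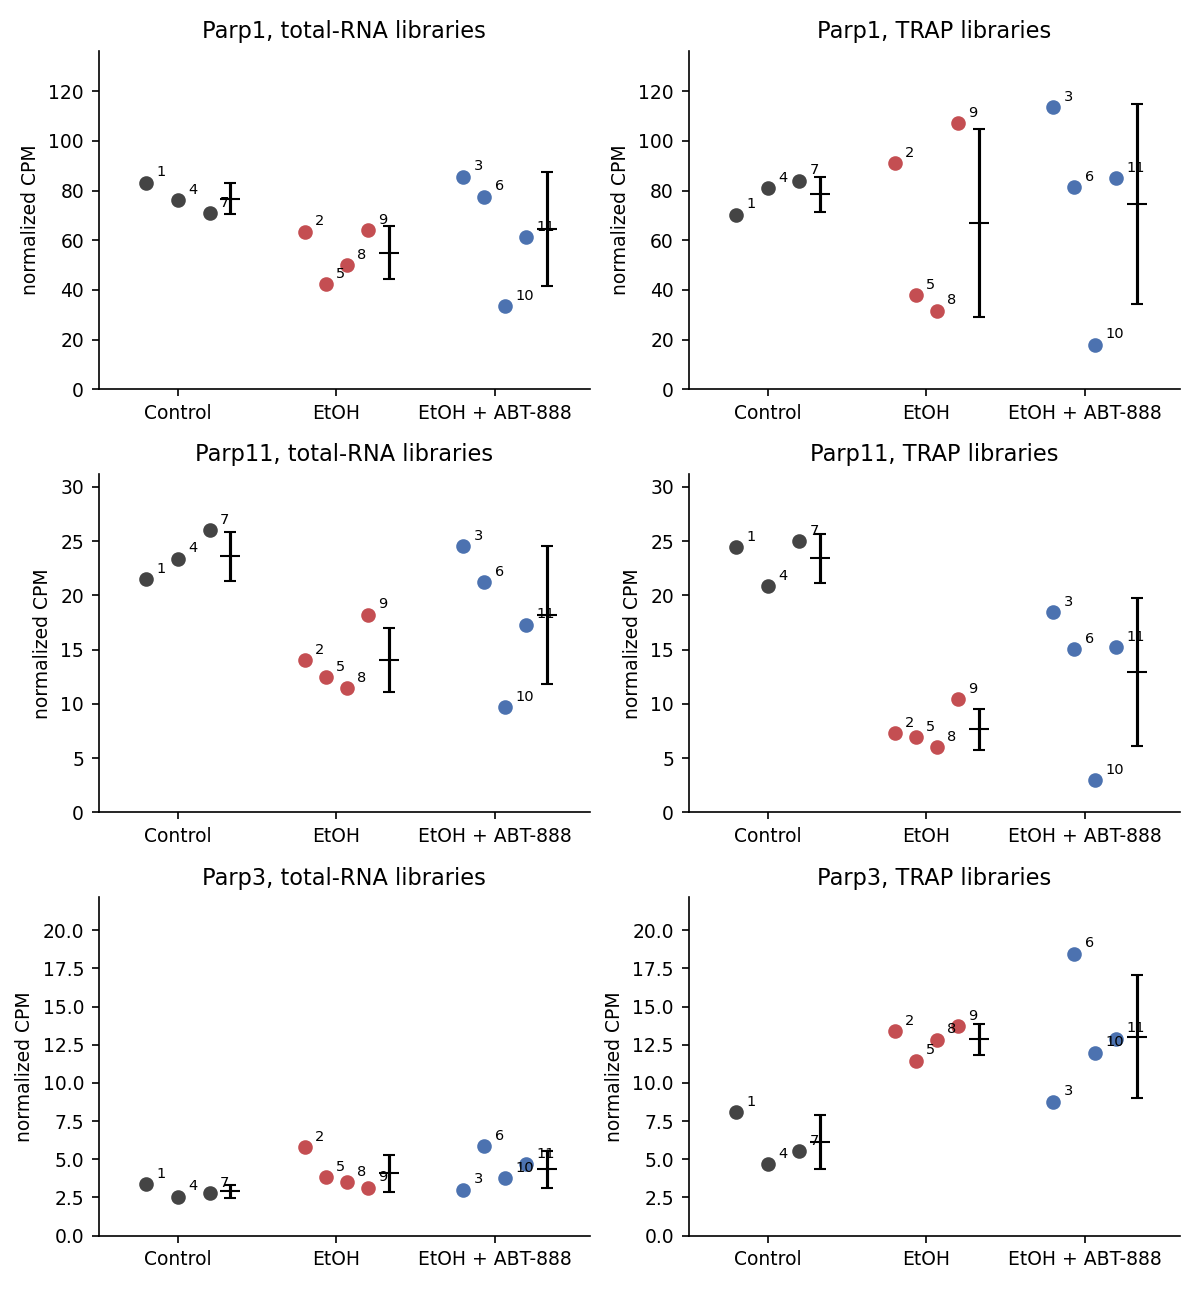
Normalized CPM of Parp1, Parp11 and Parp3 (rows) in total-RNA (left) and TRAP (right), with 1 point for each library, labelled by mouse number, and the mean ± SD beside each treatment. Mice 5, 8 and 10 are the lowest for Parp1 in both pools, and all EtOH libraries lie below Control for Parp11.

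The last comparisons asked whether ABT-888, given with ethanol on the final day, changed the levels of its target family. Against Control no member was called in TRAP (0.476% of all tested genes were called) or in total-RNA (0.263%) by the quasi-likelihood test. At an unadjusted p under 0.05 there was 1 member in TRAP (12.1% of all tested genes) and 3 in total-RNA (15.9%). ExactTest called 0 members in TRAP (2.26% of all tested genes) and 1 in total-RNA (3.87%), and DESeq2 1 in each (2.98% and 4.41%). Against EtOH, with 0% of all tested genes called in either pool by the quasi-likelihood test, no member was called by it, nor by exactTest or DESeq2 (0% in TRAP and 0.0142% in total-RNA by each). At an unadjusted p under 0.05 there were 0 members, beside 0.967% of all tested genes in TRAP and 1.91% in total-RNA. The libraries of every member overlapped there, while 0.945% of all tested genes in TRAP and 1.36% in total-RNA did not. Both treatments were compared with the same Controls, so their values are set side by side only.

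Parp3 in TRAP had a log2 fold change of 1.11 against Control (0.40 to 1.83, adjusted p = 0.180 by the quasi-likelihood test) in EtOH + ABT-888, beside 1.10 in EtOH. Every EtOH + ABT-888 library was above every Control library, though mouse 3 (8.77 normalized CPM) barely so, as Control mouse 1 held 8.11. DESeq2 called it (adjusted p = 0.0361), as did the joint model of 22 libraries (0.0412). Between EtOH + ABT-888 and EtOH it was at 0.02 (-0.55 to 0.59). Parp8 in total-RNA was at -0.49 against Control (-0.76 to -0.22, adjusted p = 0.112, unadjusted p = 0.00235), beside -0.41 in EtOH. Its EtOH + ABT-888 libraries held 14.1, 13.8, 12.9 and 13.4 normalized CPM, all below the Controls, and exactTest (adjusted p = 0.0402) and DESeq2 (0.00432) called it.

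Parp11 was at -0.86 against Control in TRAP (-1.79 to 0.08, adjusted p = 0.455), without overlap, and at -0.38 in total-RNA (-0.95 to 0.19). Against EtOH it was at 0.74 in TRAP (-0.18 to 1.66, unadjusted p = 0.108) and 0.37 in total-RNA (-0.18 to 0.92, unadjusted p = 0.165), adjusted p = 1.00 in each by the quasi-likelihood test. Without mouse 10 the values against Control were -0.51 in TRAP and -0.17 in total-RNA, and the Parp11 value against EtOH in total-RNA ran from 0.19 (without mouse 3) to 0.58 (without mouse 10). Of the 4 EtOH + ABT-888 mice, 3 held more Parp11 in TRAP than any EtOH mouse and mouse 10 held less than all of them. For Parp1, the inhibitor's main target, the TRAP libraries of mice 3, 6, 10 and 11 held 114, 81.4, 17.9 and 85.0 normalized CPM and the total-RNA libraries 85.6, 77.6, 33.4 and 61.3. Mouse 3 was the highest of all 11 mice in both pools and mouse 10 the lowest. Against EtOH, Parp1 was at 0.15 in TRAP (-0.84 to 1.14, and between -0.11 and 0.49 when 1 library was left out) and 0.23 in total-RNA (-0.30 to 0.76, and between 0.07 and 0.45 in the same way), and Parp2 at 0.10 (-0.52 to 0.73) and -0.14 (-0.56 to 0.29).

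Parp2 against Control was at 0.14 in TRAP (-0.51 to 0.79) and -0.39 in total-RNA (-0.83 to 0.06), where its EtOH + ABT-888 libraries held 11.7, 12.4, 6.80 and 10.9 normalized CPM, all below the Controls at 14.1, 12.8 and 14.1. Parp4 in total-RNA was at 0.38 (0.02 to 0.75, adjusted p = 0.284), with 8.62, 7.57, 7.70 and 8.32 all above the Controls at 5.69, 5.84 and 6.99. In the test of EtOH + ABT-888 by pool, Parp4 was the member with the smallest unadjusted p (-0.59, -1.19 to -0.0012, unadjusted p = 0.0496, adjusted p = 1.00). Members whose libraries did not overlap between EtOH + ABT-888 and Control numbered 3 in TRAP (14% of all tested genes) and 3 in total-RNA (16.9%). Neither interaction of treatment with pool called a member, with 0.0213% of all tested genes called for EtOH and 0% for EtOH + ABT-888. The likelihood ratio test and DESeq2 also called 0 members in both, where each called 0.114% of all tested genes for EtOH, and 0.0426% and 0.0284% for EtOH + ABT-888. At an unadjusted p under 0.05 there were 0 and 1 members, beside 4.87% and 3.38% of all tested genes. Against EtOH in total-RNA the log2 fold change was -0.12 for Tnks (-0.34 to 0.09), -0.0051 for Tnks2 (-0.21 to 0.20) and 0.02 for Parg (-0.23 to 0.27). In TRAP it was -0.20 (-0.52 to 0.13), -0.08 (-0.46 to 0.29) and 0.09 (-0.27 to 0.46) in the same order.

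**Figure D4:**
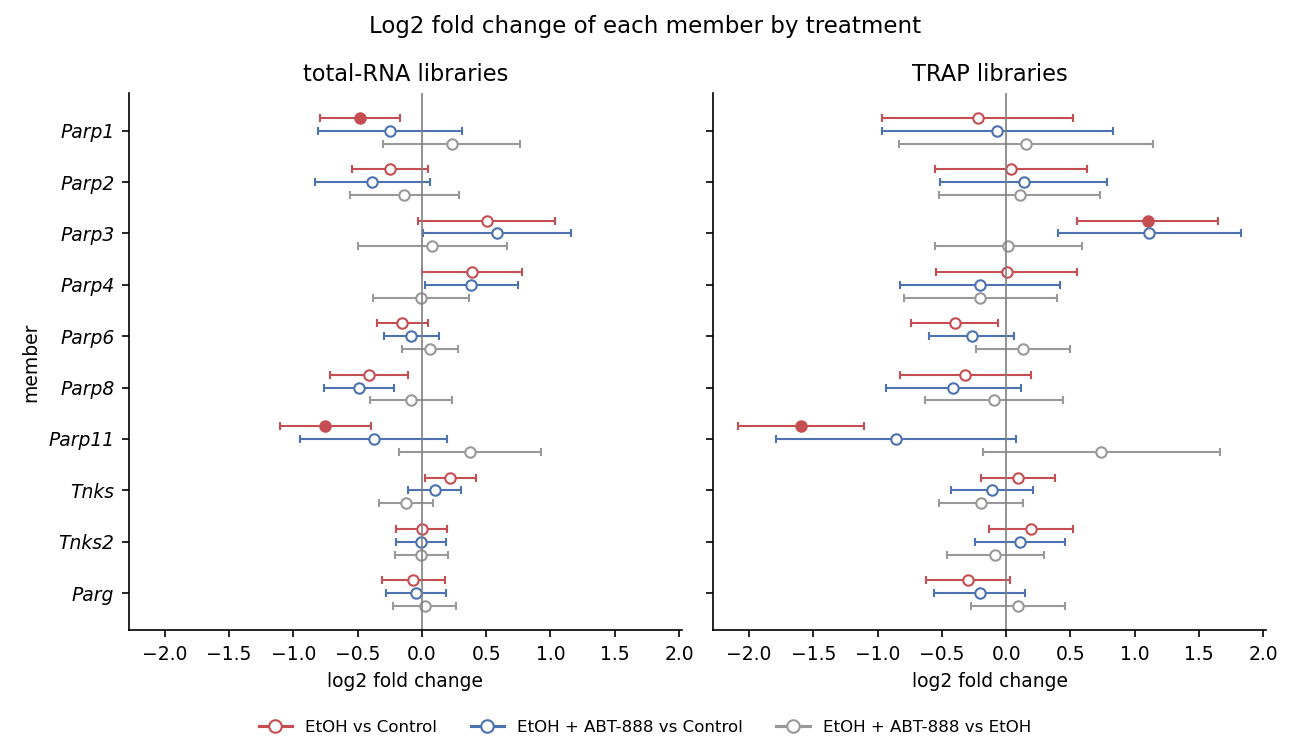
Log2 fold change of each member in total-RNA (left) and TRAP (right) for the 3 treatment comparisons, with bars for the 95% interval and filled points where the quasi-likelihood test gave an adjusted p under 0.05. The filled points are Parp11 in both pools, Parp1 in total-RNA and Parp3 in TRAP, all for EtOH against Control.

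Parp1 and Parp11 differed widely between mice of the EtOH + ABT-888 group, and Parp1 also between EtOH mice in TRAP. In EtOH + ABT-888 TRAP the SD of log2 normalized CPM was 1.18 for Parp1 and 1.13 for Parp11, and 1.67% and 2.20% of all tested genes had one as large, with a median of 0.37. In EtOH TRAP the SD of Parp1 was 0.88 (4.28% of tested genes as large). The same mice were low in both pools. For Parp11 the 4 lowest were mice 10, 8, 5 and 2, in that order, in TRAP and in total-RNA alike. Across the 11 mice the Pearson r of Parp1 with Parp11 was 0.77 in TRAP and 0.91 in total-RNA, as a description only, since each pair of values comes from 1 library and the treatments are pooled. The 3 mice lowest in Parp1 (5, 8 and 10) had the 3 deepest TRAP libraries, at 22002618, 21892234 and 21080724 reads, but not the deepest total-RNA libraries throughout (31606619, 25086278 and 31606322). The part of depth was not tested.

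Among the transcripts with the pattern most like Parp1 over the 22 libraries were Rbm5 (r = 0.94), a splicing regulator, and Heatr5b (0.94). For Parp2 they were Zkscan7 (r = 0.83), Cttnbp2 (0.82) and Brat1 (0.79), a partner of the DNA damage kinase ATM. Libraries of both pools and all treatments enter these values, which share depth and composition.

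Other genes of the ADP-ribose pathway were listed by role. Of the 28 tested, 18 were called between pools in Control, 14 in EtOH and 10 in EtOH + ABT-888, near the 59.9%, 50.7% and 41% of all tested genes, so the number of calls is not particular to these lists. Of 7 other ADP-ribosyltransferases 6 were tested (Parp10 fell under the filter), and 5 were lower in TRAP than in total-RNA in Control and in EtOH and 4 in EtOH + ABT-888, none higher. In Control these included the interferon-linked enzymes Parp14 (-2.93 ± 0.38 on the log2 scale), Parp12 (-2.83 ± 0.38) and Parp9 (-2.24 ± 0.32) and the antiviral Zc3hav1 (-2.61 ± 0.42), with adjusted p between 5.42e-05 and 0.000233 by the quasi-likelihood test. Their TRAP levels were near the floor, with group means from 0.14 (Parp9) to 0.98 (Parp12) normalized CPM, both in EtOH + ABT-888. Parp9 and Parp14 were at 0 in some treated TRAP libraries. The median of the 6 tested genes of this list was -2.43 against 0.02 over all tested genes, and the astrocyte and oligodendrocyte sums given above were lower in TRAP as well. The median of the 10 PARP family members was 0.01 in the same comparison. Dtx3l, the ubiquitin ligase partner of Parp9, was lower in TRAP in all 3 treatments (-1.19, -1.75 and -2.40).

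The counts by list below stand beside 59.9% of all tested genes called between pools in Control, 50.7% in EtOH and 41% in EtOH + ABT-888. Of 9 tested erasers and hydrolases (Adprhl1 fell under the filter), 3 were higher and 2 lower in TRAP in Control, 3 and 1 in EtOH and 2 and 1 in EtOH + ABT-888. Adprs, which removes ADP-ribose from serine, was higher in each (1.02 ± 0.22, 1.28 ± 0.22 and 1.25 ± 0.21), as was Adprh, the arginine hydrolase (0.67, 0.48 and 0.43), while the ectoenzyme Enpp1 was lower (-0.98, -0.85 and -1.16). Of 8 partners and readers, 3 were higher and 2 lower in Control, 2 and 1 in EtOH and 0 and 1 in EtOH + ABT-888. The histone variant Macroh2a2 was among the higher ones in Control (0.65 ± 0.13) and EtOH (0.76 ± 0.17). Of 5 tankyrase partners, Axin1, the scaffold that tankyrases mark for degradation, was higher in TRAP in each treatment (0.40, 0.80 and 0.74) and Tnks1bp1 lower (-1.31, -1.06 and -1.30), with Numa1 also lower in Control (-0.59).

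**Figure D5:**
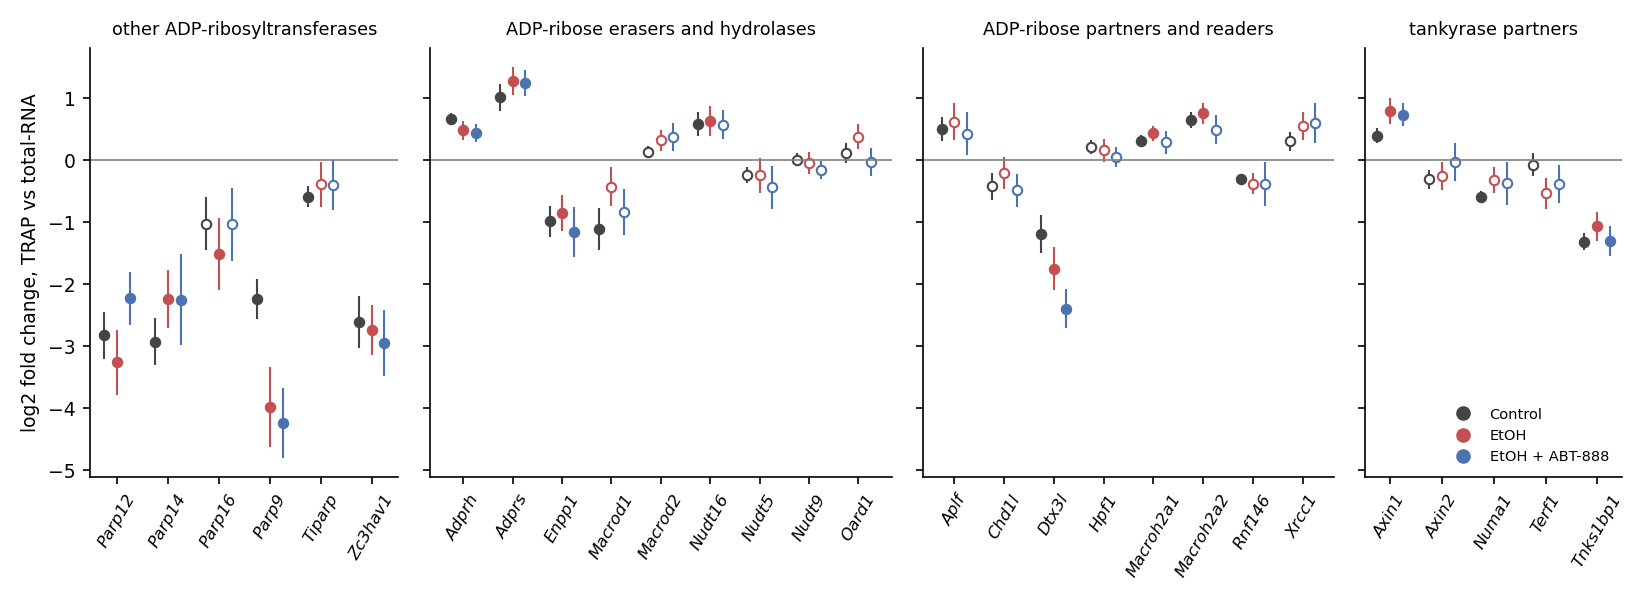
Log2 fold change of TRAP over total-RNA for the other genes of the ADP-ribose pathway in each treatment, with bars for the SE and filled points where the quasi-likelihood test gave an adjusted p under 0.05. Parp9, Parp12, Parp14 and Zc3hav1, whose TRAP levels were near the floor, lie between -4.24 and -2.23, and Adprs and Adprh lie above 0 throughout.

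In EtOH against Control in total-RNA, 4 of these 28 genes were called, near the 17.6% of all tested genes. By list, 1 of 6 other ADP-ribosyltransferases was higher, Tiparp, the dioxin-inducible enzyme (1.12 ± 0.17, adjusted p = 0.00161), and 2 of 9 erasers were lower, Nudt5, which cleaves free ADP-ribose (-0.82 ± 0.22, adjusted p = 0.0228), and Enpp1 (-0.71 ± 0.19, adjusted p = 0.0254). Of 8 partners and readers 1 was higher, Rnf146 (0.50 ± 0.14, adjusted p = 0.0273, quasi-likelihood test), the ubiquitin ligase that reads chains made by tankyrases, and of 5 tankyrase partners 0 were called, with 1 by exactTest and 1 by DESeq2 (21.4% and 22.1% of all tested genes). In TRAP, with all 28 genes of these lists tested, the quasi-likelihood test called none in EtOH or in EtOH + ABT-888 against Control, with 4 and 5 at an unadjusted p under 0.05, beside 23.1% and 12.1% of all tested genes. ExactTest and DESeq2 each called 2 in EtOH (9.75% and 10.8% of all tested genes) and 0 in EtOH + ABT-888. In TRAP the Tiparp value was 1.35 in EtOH and 0.97 in EtOH + ABT-888. In total-RNA, EtOH + ABT-888 against Control also called none of the 28 by the quasi-likelihood test, exactTest or DESeq2 (0.263%, 3.87% and 4.41% of all tested genes). By the quasi-likelihood test 3 were at an unadjusted p under 0.05, beside 15.9% of all tested genes. Tiparp was at 0.78, Nudt5 at -0.46 and Rnf146 at 0.50.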

How the data were processed

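The authors made CORALL total RNA libraries after rRNA depletion, sequenced paired ends of 50 bases, aligned them to mm10 with STAR and deposited raw read counts per gene from featureCounts with an ENSEMBL annotation. Versions, strand setting and treatment of multi-mapping reads are not given in the sources used here. The table held 39056 genes in 22 libraries, and GENCODE M21 named 38872 of them. Groups came from the labels. The members and gene lists were chosen with earlier results of these data known. Named genes were the 10 members, up to 4 called genes of each list with the smallest p, and the 3 transcripts most like Parp1 and Parp2. Results for some genes these rules cover are not reported here.

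Genes with at least 500 counts in total and detected in at least 3 libraries were kept (14072). Counts were scaled with TMM and compared with edgeR's quasi-likelihood test and Benjamini-Hochberg adjustment (R 4.3.3, edgeR 4.0.16, limma 3.58.1). SE and 95% intervals came from the F statistic. Correlations and SD of log2 normalized CPM used a pseudocount of 0.5. Each fit used the groups compared, except the interactions, fitted over 22 libraries. The study's own pairwise test, exactTest, was an alternative, with DESeq2 1.42.0, the likelihood ratio test, RLE factors, no filter, filterByExpr, a single fit over all libraries, the mouse as a block and leaving out each library. Leaving out both libraries of mouse 10 was added after seeing the data. Scripts were tested on simulated data.

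Same-numbered libraries came from the same mouse per the labels, and deviations from the group means correlated within a mouse with r between 0.13 and 0.68 in all 11. Each library is 1 mouse. Depth was 6570957 to 32421392 counts, with 70 to 261 counts per library for Parp3 and 46 to 290 for Parp4. Promoters came from RefSeq (GRCm38.p6).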

Additional observations from a re-analysis of the deposited data

How the results depend on the processing

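Over 1820 alternative values of single members, no called difference changed sign. Of 181 alternatives to a called value 156 stayed past the threshold and 25 did not, and of 1639 alternatives to an uncalled value 13 passed it and 76 changed sign. The number of called members moved by 1.5 times or more in these cases, for which the cause was not tested. A single fit over all 22 libraries called 2 members between pools in Control instead of 4 (42.8% of all tested genes in that fit), 0 with EtOH in total-RNA instead of 2 (1.07%), 1 with EtOH + ABT-888 in TRAP instead of 0 (2.86%), and 3 with EtOH in TRAP instead of 2 (8.46%). DESeq2 called 1 with EtOH + ABT-888 in each pool instead of 0, and exactTest 1 in total-RNA, and both called 3 with EtOH in total-RNA instead of 2. Leaving out 1 library gave 2 to 4 calls between pools in Control, 2 to 3 in EtOH + ABT-888, 1 to 2 with EtOH in TRAP and 0 to 3 with EtOH in total-RNA. Leaving out both libraries of mouse 10, an alternative chosen after seeing the data, gave 3 calls between pools in EtOH + ABT-888 (41.4% of all tested genes) and 0 in both interactions.

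With the mouse as a replicate block, calls between pools numbered 4 in Control (62.5% of all tested genes under the block), 3 in EtOH (58.8%) and 4 in EtOH + ABT-888 (54.3%, with 2 members and 41% of all tested genes without the block, adding Parp11 and Parp2), and 0 in both interactions, and the pairing changed no other call. Treatments within a pool compare different mice, so they have no pairs. RLE factors changed no call of a member. With 3 or 4 mice a group, the interactions leave wide intervals, as for Parp11, and a missed threshold does not show equal levels.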
